A study of Ananas comosus with 3 samples.

Results

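Ubiquitin-conjugating enzymes (E2 enzymes) were followed through pineapple fruit ripening. A clone was taken as an E2 element when its deposited gene name held the word ubiquitin followed by conjugating, or when it belonged to contig 153, 154, 1299 or 1433. These rules gave 18 of the 7773 features tested, a feature being a contig (clones assembled into one transcript) or an unassembled clone, and 23 of the 9278 cDNA elements printed on the array. Of the 18 contigs, 14 were represented by 1 element and 4 by more. Contig 153 had 3 elements, and contigs 152, 1789 and 1959 had 2 each.

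E2 enzymes stand in the middle of a relay. An activating enzyme (E1) charges ubiquitin and hands it to an E2, and the E2, usually together with a ligase (E3), places it on a target protein, which may then be broken down by the proteasome or have its activity or location changed. In ripening fruits this system takes part in protein turnover and in hormone signalling.

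The study compared mature green with mature yellow fruits of commercial field-grown Smooth Cayenne pineapple (Clone C10), using RNA from the flesh of the middle of the fruit without skin and pith. RNA of both stages was hybridized together to each of 3 slides, on which yellow fruit cDNA carried Cy3 (replicates 1 and 3) or Cy5 (replicate 2, the dye swap). Neither the age of the fruits nor the number behind each slide was given in the sources used here. The 3 slides were treated as replicates, and if they share RNA extracts, the SDs and p-values measure only the spread between hybridizations. All ratios below are log2 of yellow over green fruit after normalization, so a value above 0 is higher in mature yellow fruit. A call required a change of 1.5-fold or more together with a Benjamini-Hochberg adjusted p under 0.05 in limma over all features.

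The slides differed in quality. They held 20000, 20000 and 21168 spots, and the median element spot lay only 31.0, 67.0 and 27.4 scanner units above its local background in the yellow channel and 27.0, 116 and 15.4 in the green channel. The ratios of all features correlated between slides at 0.415 (replicates 1 and 2), 0.669 (1 and 3, of the same dye orientation) and 0.367 (2 and 3), a description across features and not across samples. Bromelain contigs 122 and 3033, bromelain inhibitor contig 124 and metallothionein-like contig 180, markers of pineapple fruit flesh, exceeded the blank spots by 2 SD in the green channel on every spot used, except on replicate 1, where 294 of 301 spots of the inhibitor did. In the yellow channel their spots above that limit ranged from 0 of 8 for contig 122 on replicate 1 to 56 of 56 for contig 180 on replicate 2. No element name matched chlorophyll a/b binding protein (0 elements), so that marker of green tissue was not checked.

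The median ratio of the E2 contigs was 0.043, beside 0.0075 for all features, and 11 were higher and 7 lower in mature yellow fruit. Contig 1299 was the highest at 0.71 and contig 153 the lowest at -0.58. Limma called 0 of the 18 E2 contigs, against a background of 0.129% of all features (10 of 7773), and the lowest adjusted p among them was 0.147. At an unadjusted p under 0.05, 3 E2 contigs passed, all of them lower in yellow fruit (153, 1433 and 1113), where 3.53% of all features passed in that direction. Contig 153 passed through clones that the study had picked on these slides, and under the numbering of the full files alone 2 E2 contigs passed. Only contig 1299 lay 1.5-fold or more above green fruit, which 3.18% of all features did, and 0 lay 1.5-fold or more below, where the background was 2.06%. These counts depended on the background correction, since with a normexp offset of 0 none was higher by that much (contig 1299 at 0.43) and 2 were lower (contigs 153 and 1433, both at -0.77). With plain background subtraction 1 was higher by that much, which was not contig 1299 (0.22), and 3 were lower. Moreover, 6 of the 18 contigs had no element above the blank spots on any slide, so their ratios near 0 say nothing of their level. In flesh extracts, fewer cells expressing a gene and less RNA of it per cell cannot be told apart.

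**Figure D1:**
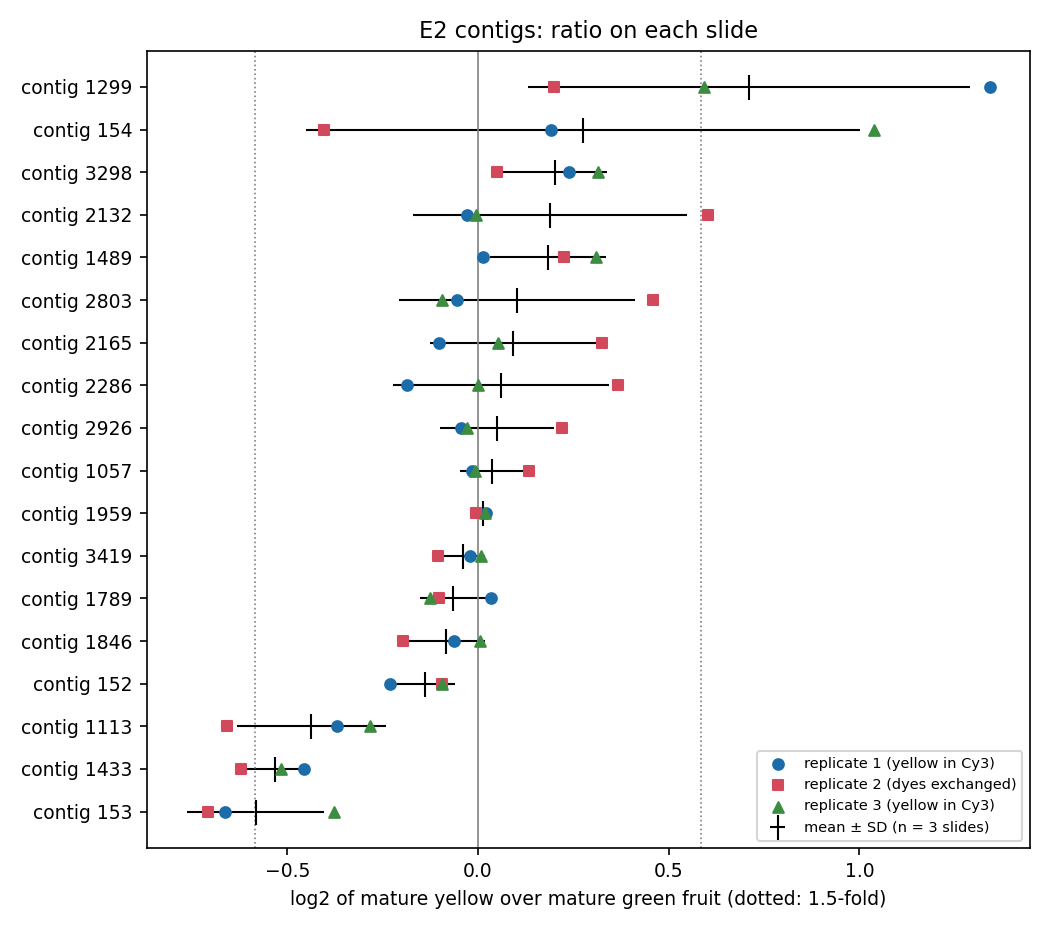
Log2 ratio of mature yellow over mature green fruit (horizontal axis) for each of the 18 E2 contigs (vertical axis, ordered by mean), with 1 symbol for each slide and a tick with a bar for the mean ± SD over 3 slides. Dotted lines mark 1.5-fold. Contigs 153, 1433 and 1113 sit below 0 on every slide, contig 1299 above 0 on every slide, and contig 154 on both sides of 0.

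The ratios on single slides showed where the family spread. On replicate 1, 6 of the 18 contigs were higher in yellow fruit, and on replicates 2 and 3, 9 were. Contig 1299 was the highest on replicate 1 (1.34), contig 2132 on replicate 2 (0.60) and contig 154 on replicate 3 (1.04), so no contig led on every slide. Contig 153 was the lowest on replicates 1 (-0.66) and 2 (-0.71) and contig 1433 on replicate 3 (-0.52). Across the E2 contigs the ratios correlated at 0.701 between replicates 1 and 3 and at 0.403 and 0.240 between these and the dye swap, over 18 contigs that share the same slides.

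Contig 1299 was deposited as a ubiquitin conjugating protein and is annotated in the study as UBE2A, the class named after yeast RAD6, which ubiquitinates histones and takes part in DNA damage tolerance and in the breakdown of proteins with destabilizing N-termini. Its single element, JBW052F10, was among the brightest of the array, with 0.933%, 2.01% and 7.64% of the elements brighter on replicates 1, 2 and 3. Before normalization its signal over local background was 6104 in yellow and 3023 in green fruit on replicate 1, 4506 and 7342 on replicate 2, and 501 and 220 on replicate 3. The Cy3 channel was thus the brighter one on each slide, whichever fruit it carried, and the unnormalized ratio changed its direction with the dye.

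After normalization the ratio of contig 1299 was 1.34, 0.20 and 0.59, higher in yellow fruit on all 3 slides and lowest on the dye swap. The mean was 0.71 ± 0.58 (SD, n = 3 slides), or 1.64-fold, and it did not pass the test (limma's adjusted p = 0.566). Its unadjusted p in limma was 0.0534. The study also measured this gene by quantitative PCR and reported it as higher in yellow fruit. That measurement is not part of the slide data used here. Bright elements had medians off 0 after loess. The 200 elements nearest in brightness had a median of 0.57 on replicate 1, -0.10 on replicate 2 and 0.27 on replicate 3. Such medians also depend on which clones are bright, and this was not separated from a shift of the slide. With a running median over the 200 spots nearest in brightness in place of loess, added once the data had been looked at, the ratio was 0.57, 0.40 and 0.33 with a mean of 0.43 (limma's adjusted p = 0.313). The mean was 0.40 without replicate 1 and 0.21 over the spots that had passed the authors' 2xSD test (a limit of 2 SD in the study's methods).

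Contig 154 was deposited as ubiquitin-conjugating enzyme E2 and is annotated in the study as UBE2N, the UBC13 class, which in yeast, animals and Arabidopsis builds a type of ubiquitin chain used in signalling and DNA repair. Signals of its single element, JBW053E03, were 314 in yellow and 176 in green fruit on replicate 1, 330 and 691 on replicate 2, and 1783 and 759 on replicate 3. The Cy3 channel was again the brighter one on each slide. Its yellow fruit signal was below the blank limit on replicates 1 and 2 (limits of 527 and 373), so the ratios of those slides rest on a channel not above the blanks. The limits of the green channel were lower (125 and 221). On replicate 1 the green signal thus passed its limit although the yellow signal was the brighter. The element also took different ranks, with 16.3% and 17.7% of elements brighter on replicates 1 and 2 and 2.41% on replicate 3.

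The normalized ratio of contig 154 was 0.19, -0.40 and 1.04. Yellow fruit was higher on the slides in which it carried Cy3 and lower on the dye swap, so the slides disagreed in direction, although only replicate 3 had both channels above the blanks. The mean of 0.28 ± 0.73 (SD, n = 3 slides) did not pass the test (limma's adjusted p = 0.866). The direction rested on replicate 3, without which the mean was -0.11, while without replicate 2 it was 0.62. On replicate 3 the 200 elements nearest in brightness had a median of 0.44.

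**Figure D2:**
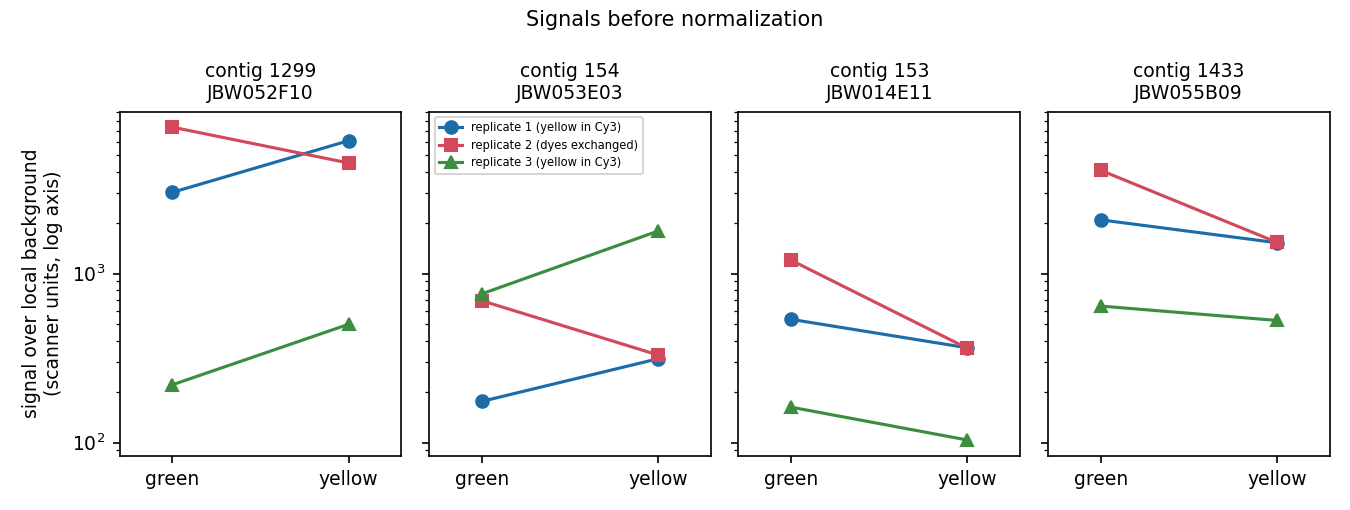
Signal over local background (vertical log axis, scanner units, mean of duplicate spots, before normalization) in green and yellow fruit for 1 element of each of 4 E2 contigs, with 1 line for each slide. For contigs 1299 and 154 the line of replicate 2, the dye swap, falls where the others rise, while for contig 1433 and element JBW014E11 of contig 153 all 3 lines fall.

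Contig 1433 was deposited as an E2 enzyme and is annotated in the study as UBE2D_E, the class of broadly acting E2 enzymes that work with many ligases. Its element JBW055B09 was bright, with 3.27%, 4.87% and 4.90% of elements brighter. The signal was 1522 in yellow and 2078 in green fruit on replicate 1, 1531 and 4079 on replicate 2, and 528 and 642 on replicate 3, so green fruit was the brighter on every slide in either dye. Of the 4 contigs, only 1299 and 1433 had both channels above the blank limit on all slides.

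The normalized ratio of contig 1433 was -0.46, -0.62 and -0.52, the most even among the E2 contigs at the outer ends of the family. The mean of -0.53 ± 0.083 (SD, n = 3 slides) was 1.44-fold lower in yellow fruit. In limma its unadjusted p was 0.0014 and its adjusted p 0.147, so it was not called. With trend and robust variances in limma its unadjusted p was 0.072. With the running median over the 200 nearest spots in place of loess the ratio was -0.59, -0.68 and -0.95. Over the spots past the 2xSD test the mean was -0.97 with limma's adjusted p = 0.0275, whereas in the table of processed values deposited by the authors it was 0.12 (0.57, 0.12 and -0.31 on the 3 slides). In that table replicate 3 is not centred, and with each slide centred on its median the mean was -0.29.

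Contig 153 was deposited as a ubiquitin conjugating enzyme. Averaged over its 3 elements the ratio was -0.66, -0.71 and -0.38, lower in yellow fruit on every slide. The mean of -0.58 ± 0.18 (SD, n = 3 slides) was just under the 1.5-fold limit. In limma its unadjusted p was 0.0041 and its adjusted p 0.238.

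The 3 elements of contig 153 did not share one value. JBW014E11 gave -0.91, -0.99 and -0.81, a mean of -0.91 ± 0.088, from signals of 364 in yellow and 536 in green fruit on replicate 1, 362 and 1198 on replicate 2, and 104 and 162 on replicate 3. Yellow fruit exceeded its blank limit, the higher of both channels, only on replicate 3, so the ratios of replicates 1 and 2 rest on a channel not above the blanks. JBW015D02 gave -0.85, -1.40 and -0.18, but its yellow fruit signal stayed below the blank limit on all slides (38.5, 66.0 and 5.72), so its level there has only an upper bound and no fold is given. JBW054H04 gave -0.23, 0.26 and -0.14, a mean of -0.037 ± 0.26 that lay on both sides of 0, with yellow fruit below the blank limit on replicate 1.

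Those elements differ in how they came to be in the contig. JBW054H04 carried its contig number in the full slide files, whereas JBW014E11 and JBW015D02 received theirs only in the files of spots past the 2xSD test. According to the study's methods, unsequenced clones were picked for sequencing when they had passed its thresholds on these same slides. The ratios of both newly numbered elements are therefore given as a description, and the p of contig 153 is not independent of that choice. Under the numbering of the full files alone, contig 153 consisted of JBW054H04 and lay at -0.037 (limma's adjusted p = 0.955). When each element was a feature of its own, JBW014E11 was called (limma's adjusted p = 0.0217 over 9275 elements).

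**Figure D3:**
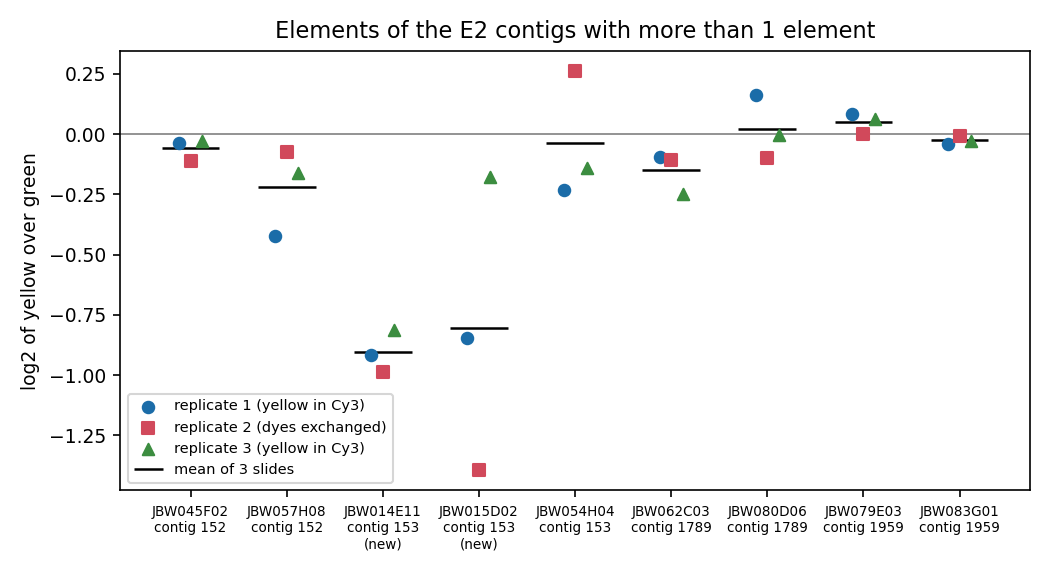
Log2 ratio of yellow over green fruit (vertical axis) for each element of the 4 E2 contigs that had more than 1 element, with 1 symbol for each slide and a line for the mean of 3 slides. Elements marked new received their contig number only after passing the study's thresholds. In contig 153 the new element JBW014E11 averages -0.91 and the earlier element JBW054H04 -0.037, and JBW015D02, whose yellow fruit signal was below the blank limit on all slides, has only a bound.

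Contig 1113, annotated in the study as UBC10 and so of the same broadly acting class as contig 1433, gave -0.37, -0.66 and -0.28. It was lower in yellow fruit on each slide, with a mean of -0.44 ± 0.20 (SD, n = 3 slides). In limma its unadjusted p was 0.0133 and its adjusted p 0.385. Its element JBW049C01 was dimmer, at 206 in yellow and 190 in green fruit on replicate 1, 200 and 528 on replicate 2, and 124 and 104 on replicate 3. Yellow fruit exceeded the blank limit of its channel only on replicate 3. On replicate 1 the yellow signal was nevertheless above the green one, which passed its own lower limit. Unlike contig 1433, its unnormalized ratio changed direction with the dye.

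The E2 contigs named for opposite directions were set against each other within each slide, which leaves out any shift common to a whole slide. Contig 1299 exceeded contig 153 by 2.01, 0.91 and 0.97 on the log2 scale and contig 1433 by 1.80, 0.82 and 1.11. The mean differences were 1.29 ± 0.62 and 1.24 ± 0.50 (SD, n = 3 slides), which correspond to ratios 2.45-fold and 2.36-fold apart. Contig 154 exceeded contig 153 by 0.86, 0.30 and 1.42 and contig 1433 by 0.65, 0.22 and 1.55, with means of 0.86 ± 0.56 and 0.81 ± 0.68.

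Every one of these differences was above 0 on every slide, and the smallest of each pair came from the dye swap. Those with contig 153 rest on the clones of that contig that had been picked on these slides. The earlier element of contig 153, JBW054H04, lay at 0.26 on replicate 2, above contigs 1299 (0.20) and 154 (-0.40). The mean of both higher contigs exceeded the mean of both lower ones by 1.33, 0.56 and 1.26, on average 1.05 ± 0.42. Under the numbering of the full files alone that average was 0.78. These contigs were chosen with their directions known, so the differences are a description with no test. By single slides, the lowest value of contig 1299 (0.20) lay above the highest of contigs 153 (-0.38), 1433 (-0.46) and 1113 (-0.28). For contig 153 that held for the average of its 3 elements and not for JBW054H04 alone. The values of contig 154 overlapped those of contigs 1299, 153 and 1113, with a lowest value of -0.40, and did not overlap those of contig 1433. Contigs 153, 1433 and 1113 overlapped one another and did not differ beyond their spread.

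**Figure D4:**
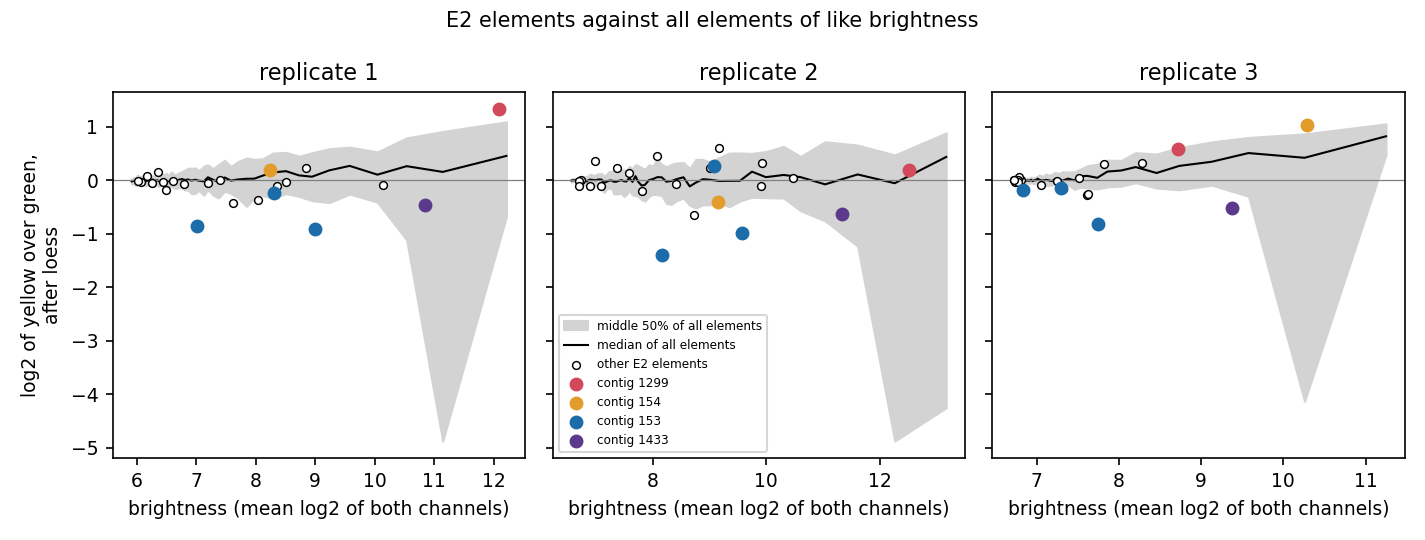
Log2 ratio after loess (vertical axis) against brightness (horizontal axis, mean log2 of both channels) of the E2 elements on each slide, with the median (line) and the middle 50% (grey) of all elements of like brightness. Contig 1299 on replicate 1 (1.34) and contig 154 on replicate 3 (1.04) lie among bright elements whose median is itself above 0, and contig 1433 lies below the median on every slide.

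The shift of bright elements was measured over the whole array. Among the brightest 1% of elements the median ratio after loess was 0.45, 0.77 and 0.91 on replicates 1, 2 and 3, while among the dimmer 50% it was -0.0046, -0.0020 and -0.0006. The shift was not even, since in the next 1% the medians were 0.61, -0.30 and 0.56, and between the top 2% and 5% they were 0.17, 0.072 and 0.44. Bright elements were also widely split, with lower quartiles of -4.86, -4.95 and -4.14 in that next 1%. Whether the running median gives a value nearer the level of a contig was therefore not tested. Contig 1299 was within the top 1% on replicate 1 only. The part of this shift in the difference between the contigs was not tested beyond the running median, under which the mean of both higher contigs exceeded that of both lower ones by 0.94.

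The remaining contigs with more than 1 element showed smaller ratios. Contig 152 gave -0.23, -0.093 and -0.095, lower on each slide, with a mean of -0.14 ± 0.079 (SD, n = 3 slides, limma's adjusted p = 0.586). Its elements JBW045F02 and JBW057H08 averaged -0.058 and -0.22, and only the latter exceeded the blank limit in either channel. In yellow fruit JBW057H08 did so only on replicate 3, so the ratios of replicates 1 and 2 rest on a channel not above the blanks. Contig 1789 gave 0.035, -0.10 and -0.13, on both sides of 0, with a mean of -0.064 ± 0.087 (limma's adjusted p = 0.844). Its element JBW062C03 was bright, at 1118 in yellow and 1021 in green fruit on replicate 1, and averaged -0.15, whereas JBW080D06, which never exceeded the blank limit, averaged 0.021.

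Contig 1959 lay at 0.012 ± 0.014, but neither of its elements exceeded the blank limit in either channel on any slide, so its ratio says nothing of its level and no fold is given. It was not alone. Of the 23 E2 elements, 9 did not exceed the blank limit in either channel on any slide, 11 did so on all 3, and 3 on 1 or 2 slides. The study's 2xSD lists held 9 E2 elements on all 3 slides and 9 on none. The offset of 50 added to both channels draws the ratios of such dim spots toward 0.

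The other 10 E2 contigs, each with 1 element, had mean ratios from -0.085 to 0.20. Contigs 3298 and 1489, named after their values were seen, were higher in yellow fruit on every slide. On replicate 1, however, contig 1489 exceeded the blank limit in neither channel and contig 3298 only in the green one. Their ratios on that slide therefore rest on channels not above the blanks. Contig 3298 gave 0.24, 0.050 and 0.31 with a mean of 0.20 ± 0.14 (limma's adjusted p = 0.570), and contig 1489 gave 0.014, 0.23 and 0.31 with a mean of 0.18 ± 0.15 (adjusted p = 0.598). With contig 1299 they made 3 E2 contigs higher on all 3 slides, where 17.9% of all features were. Contigs 152, 153, 1113 and 1433 made 4 that were lower on all 3, where 16.5% of all features were. Contig 153 was among these only through its newly numbered clones, since JBW054H04 alone gave 0.26 on replicate 2.

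Duplicate spots of the E2 elements were compared within each slide. The comparison includes the 9 elements that never exceeded the blanks, so it does not measure the precision of the brighter ones. The median absolute difference between them was 0.078, 0.14 and 0.053 on the log2 scale on replicates 1, 2 and 3, and the highest were 0.41, 0.52 and 0.27.

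The other genes of the ubiquitin and proteasome system, 43 features by their deposited names, had a median of 0.090, with 27 above 0 and 16 below, where 53.2% of all features were above 0. None was called (limma, 0 of 43), and 9 had an unadjusted p under 0.05, which 8.95% of all features had. The single E1, ubiquitin-activating enzyme contig 695, gave 0.34, 0.36 and 0.25, a mean of 0.32 ± 0.061 (SD, n = 3 slides, limma's adjusted p = 0.276).

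Polyubiquitin contigs, which encode head-to-tail ubiquitin repeats, numbered 4 with a median of 0.56 and ranged widely. Contig 193, with 32 elements, gave 0.99, 1.49 and 0.76, a mean of 1.08 ± 0.37 (limma's adjusted p = 0.238), and contig 1993 gave 0.83, 0.90 and 0.65, a mean of 0.79 ± 0.13 (adjusted p = 0.121). Both were above 1.5-fold on each slide and neither was called. Contig 66 had a mean of 0.33 ± 0.076 and contig 545 one of -0.011 ± 0.11. The 20 proteasome subunits, the parts of the protease that degrades ubiquitinated proteins, ranged from -0.14 to 0.33 with a median of 0.13. On the lower side stood contig 3444, a RING finger protein of the type found in many E3 ligases, at -0.54, -0.45 and -0.52, a mean of -0.51 ± 0.046 (limma's adjusted p = 0.131). Contigs 695, 193, 1993, 66, 545 and 3444 were named after their values were seen.

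**Figure D5:**
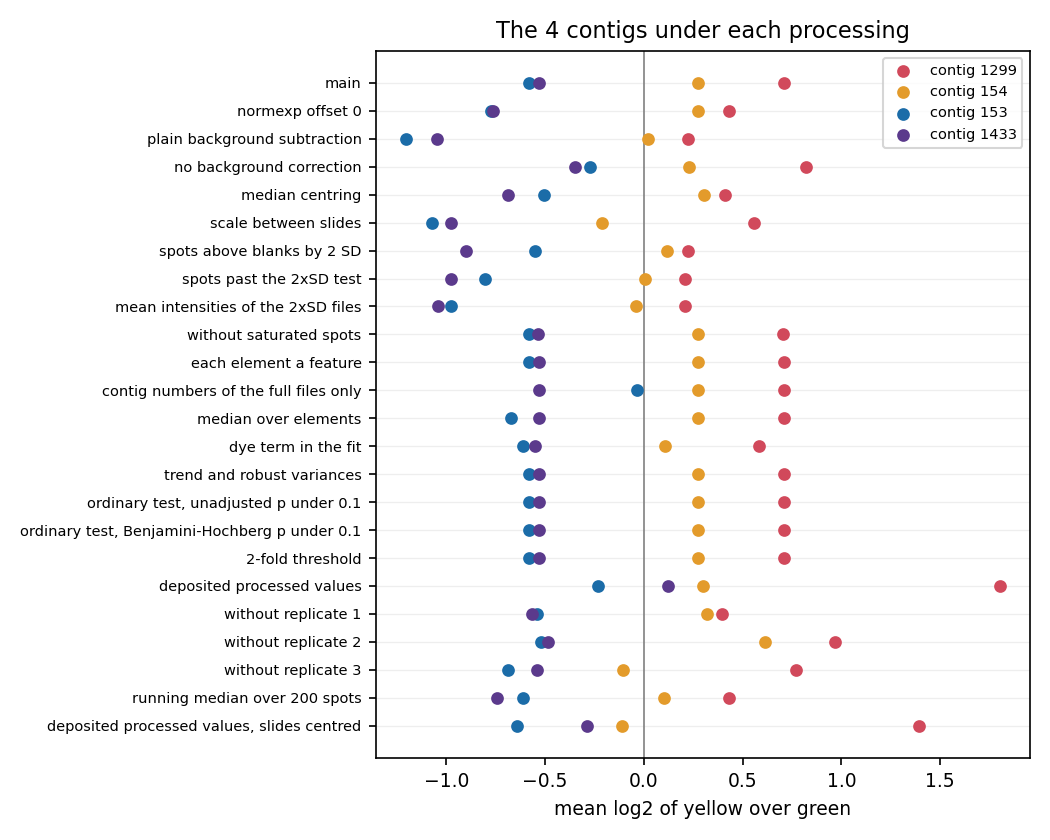
Mean log2 ratio of yellow over green fruit (horizontal axis) of 4 E2 contigs under each way of processing the slides (vertical axis). Contig 1299 stays above 0, from 0.21 to 1.80, and contig 153 below 0, from -1.20 to -0.037. The value of -0.037 is that without the clones of contig 153 picked on these slides. Contig 154 lies on both sides, and contig 1433 crosses 0 in the deposited processed values (0.12) but not once their slides are centred (-0.29).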

How the data were processed

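RNA of mature yellow and mature green pineapple flesh was hybridized together to 3 slides, with the dyes exchanged on replicate 2. The raw intensities deposited by the authors cover each channel and the local background of each edited spot, uncorrected, as medians on replicates 1 and 2 and means on replicate 3. Spots past the 2xSD test were also deposited as mean intensities, with contig numbers for further clones (413 elements carried a number only there). They also deposited a score per contig, a signed ratio (minus the reciprocal below 1) that the methods describe as LOWESS normalized. It ran as Cy3 over Cy5 on every slide, and on replicate 3 it was not centred (median log2 1.03).

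Spots marked abnormal (318, 308 and 547) were left out, among them 1 E2 spot. Background was corrected by normexp (offset 50), then loess was fitted on each slide, with abnormal, blank and control spots at weight 0, in R 4.3.3 with limma 3.58.1. Plots used matplotlib 3.10.9 (Python 3.11.15). All ratios run as yellow over green. Duplicate spots and then the elements of a contig were averaged, and a feature needed 2 slides. Limma fitted an intercept with moderated variances (prior degrees of freedom 1.66), two-sided, with Benjamini-Hochberg adjustment over all 7773 features. The scripts were tested on simulated slides with changes planted in bright features only, larger than any mean E2 ratio. That test does not show how often changes of the size seen here would be called. A spot was above the blank limit when its signal over local background exceeded the mean of the blank spots by 2 SD. Each slide holds 1 array, so slide and replicate are the same, and the number of slides limits the precision.

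The contigs named are 153, 154, 1299 and 1433, the E2 contigs with 2 or more elements, those at 1.5-fold or more, contig 1113, which the study lists, and the highest and lowest; others are marked. The members and lists were chosen with earlier results of these data known. The rest of the system was taken by name (ubiquitin, SUMO, NEDD8, RUB1, SKP1, cullin, F-box, RING finger, proteasome). Of these, 2 features were marked as nematode sequence. Alternatives changed background correction, normalization, spot filters, the feature unit, the fit, the test and the threshold, and left out each replicate. The number of unused sample columns is 0. One annotation of the study is not reported here.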

Additional observations from a re-analysis of the deposited data

How the results depend on the processing

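Among the 23 alternatives, no E2 contig was called in 18. In each of 4 others 1 was called, namely contig 1433 over spots past the 2xSD test (-0.97), an element of contig 153 with each element as a feature, and contig 1299 in the deposited processed values (1.80, limma's adjusted p = 0.000298) and in the same values with each slide centred on its median (1.39, adjusted p = 0.0107), a setting added because replicate 3 of that table has a median log2 of 1.03. With the mean intensities of the 2xSD files 2 were called, contigs 1433 (-1.04, adjusted p = 0.0281) and 153 (-0.98, adjusted p = 0.0443). Both 2xSD settings tested 2127 features, of which 11 were E2 contigs. Of all features they called 106 over the spots and 115 with the mean intensities. The processed values called 138 of 2221 and the centred ones 101 of 2221, and the fit by element 222 of 9275. The calls of contig 153 and of its element rest on clones that the study had picked on these slides. Contig 154 reversed with scaling between slides (-0.21), with the 2xSD mean intensities (-0.037), in the centred processed values (-0.11) and without replicate 3 (-0.11). Its means with one replicate left out ran from -0.11 to 0.62. Contig 1433 reversed in the deposited processed values (0.12) but not in the centred ones (-0.29), and contig 152 over spots above the blanks (0.059). The higher minus the lower E2 contigs stayed above 0 in the 17 alternatives that can move that difference (0.78 to 1.29). Their directions on these same slides were known when they were chosen, so this range is a description and no test. It also averages contig 154, which reversed by itself, with contig 1299.

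The E2 median was 0.084 with scaling between slides, 0.0037 over 2xSD spots, -0.037 with 2xSD mean intensities, 0.077 with a dye term, 0.011 with the running median, 0.30 in the processed values and -0.049 with these centred, and from -0.027 to 0.080 with one replicate left out. All features called, 10 in the analysis reported, numbered 34 with an offset of 0, 59 with plain subtraction, 18 without background correction, 6 with median centring, 0 with scaling between slides (40 at an unadjusted p under 0.05), 52 over spots above the blanks, 106 over 2xSD spots and 115 with their mean intensities. They numbered 222 with each element a feature, 227 under the numbering of the full files alone, 0 with the median over elements (668 at an unadjusted p under 0.05), 63 with a dye term, 28 with trend and robust variances, 212 by an ordinary test of the 3 ratios at an unadjusted p under 0.1 and 0 after adjustment, 138 in the processed values and 101 with these centred, 21 with the running median, and from 0 to 5 with one replicate left out. The share of calls that were higher in yellow fruit was 40% as reported, 16.7% with median centring, 28.6% with the running median and 76.8% in the processed values (58.4% with these centred). The cause of these shifts was not tested. Signal limits what the E2 contigs can show, since 9 of 23 elements never exceeded the blanks. Each slide is a ratio of both stages, so the fit of an intercept to these ratios was already paired within slides. The series has one group of slides, and no further pairing was possible.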
